A study of Mus musculus with 20 samples.

Results

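The regions described here are 2721 stretches of the mouse autosomes that lay away from H3K4me3 and carried H3K4me1 in each of the 4 cell types in which that mark was profiled: whole liver, mouse embryonic fibroblasts (MEFs), induced pluripotent stem (iPS) cells and embryonic stem (ES) cells. They were 2721 of 86986 distal H3K4me1 regions found in at least 1 of these cell types, and are called shared regions below. The autosomes were divided into bins of 1 kb, reads at the same position and strand were counted once, and levels were expressed as reads per M distinct autosomal reads of the library (RPM). A bin was distal where H3K4me3 was under 1.5 RPM in liver and in ES cells, in the bin and in both of its neighbours. A distal bin was kept where H3K4me1 reached 2 RPM in all 6 H3K4me1 libraries and at least 2 times the level of total histone H3 plus 0.1 RPM, and kept bins within 1 kb of each other were joined. The regions were thus chosen by their H3K4me1, H3 and H3K4me3 values in these libraries, and those values are given only as a description. H3K27ac, p300, Rfx1 and WCE (whole cell extract, sequenced with no immunoprecipitation) had no part in the choice. The rest of the 86986 regions came from marked distal bins outside the shared regions, joined in the same way. Such a region can adjoin a shared region or run across one of 1 kb, so the 86986 are not all separate places. The word shared covers these 4 cell types only: neural progenitor cells (NPCs) were profiled for H3K27ac and Rfx1, and their H3K4me1 was not analysed here.

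H3K4me1, a single methyl group on lysine 4 of histone H3, is laid down mainly by the MLL3 and MLL4 methyltransferases and covers enhancers, both active ones and those held in a poised or primed state, and the flanks of promoters. H3K27ac, an acetyl group on lysine 27 of the same histone, is deposited by the acetyltransferases p300 and CBP and separates active enhancers and promoters from those that carry H3K4me1 alone. H3K4me3 marks promoters. Rfx1 is a DNA-binding factor of the regulatory factor X family, known for binding X-box sequences. Most enhancers are used in few cell types, so distal H3K4me1 common to pluripotent cells, fibroblasts and liver is the exception among enhancer marks.

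The series held 20 chromatin immunoprecipitation sequencing (ChIP-seq) libraries in 16 groups, of which 13 groups had a single library. Liver libraries (H3K4me1, H3K27ac, H3K4me3, H3 and WCE) came from perfused whole liver, a mixture of cell types, with strain, age, sex and number of animals not stated in the labels. MEF libraries (H3K4me1 and H3) came from fibroblasts of unstated strain, and the iPS H3K4me1 library came from the MEF-derived line O6. NPC libraries (H3K27ac and Rfx1) came from progenitors selected out of 4-day-old embryoid bodies of 129JAE-C57/B6 ES cells and grown with FGF and EGF. ES libraries came from V6.5 cells, a C57BL/6-129 hybrid line, apart from H3K4me1 libraries 2 and 3. Library 2 came from V6.5 cells with the dox inducible 4F2A transgene and library 3 from an inbred C57BL/6 line, so the 3 ES H3K4me1 libraries are 3 kinds of cells and not repeats of one. ES and iPS cells grow on MEF feeders and had been off them for 1 or 2 passages at fixation. The 2 ES H3K27ac libraries and the 2 ES p300 libraries were both V6.5, and the description of the second p300 library reads p301 where its title and antibody fields read p300. The labels do not say that paired libraries came from separate cultures, so the spread between them may be technical.

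Aligned reads ranged from 2.45 M (iPS H3K4me1) to 18.2 M (MEF H3K4me1) per library, and distinct autosomal reads from 0.694 M (NPC Rfx1) to 14.3 M (MEF H3K4me1). Repeats of a position made up 72.5% of the Rfx1 reads and 70.0% of the ES H3K4me3 reads, against at most 20.6% in the others. The H3K4me1 threshold stood for at least 15 distinct reads per bin in liver, 29 in MEFs, 5 in iPS cells and 20, 19 and 13 in the ES libraries, so the iPS call is the least precise. The limit on H3K4me3 stood for fewer than 12 reads in liver and fewer than 4 in ES cells. The deposited positions are on a mouse build for which no genome or annotation was at hand, so gene names and sequences are not attached to regions, and the marker genes of the labelled cell types could not be looked up.

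Of 2275041 distal bins, 45921 passed in all 3 ES libraries and 40402 of these passed in iPS cells as well. Liver retained 7654 of the 40402 bins and MEFs 11072, and 3818 bins passed everywhere. These 3818 bins made up 8.31% of the distal bins marked in ES cells and 0.168% of all distal bins. Liver was most often the only library that failed, at 7254 bins, followed by MEFs at 3836 bins, while iPS cells alone failed at 364 bins and the ES libraries at 431, 248 and 224 bins. Before the H3K4me3 limit was applied, 12873 bins passed in all 6 libraries.

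Many of the bins sat near the threshold. The lowest of the 6 libraries lay between 2 and 2.2 RPM in 869 of the 3818 bins (22.8%) and at 3 RPM or more in 1314 bins (34.4%), and a further 616 bins missed only because their lowest library lay between 1.8 and 2 RPM. The bin chr1:75341001-75342000, just inside, had 2.73 RPM in liver, 5.32 in MEFs, 4.79 in iPS cells and 2.01, 2.34 and 2.90 in the ES libraries. The bin chr1:34784001-34785000, just outside, had 3.42 RPM in liver, 1.96 in MEFs, 3.92 in iPS cells and 4.42, 3.41 and 2.74 in the ES libraries.

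Across the 2721 shared regions the median H3K4me1 level was 4.03 RPM per kb in liver, 4.97 in MEFs, 4.36 in iPS cells and 3.52, 3.83 and 4.28 in the ES libraries. Over all distal H3K4me1 regions the medians were 0.683 in liver, 1.10 in MEFs, 1.53 in iPS cells and 1.00, 1.01 and 1.21 in the ES libraries. The upper end reached farther in the differentiated cells: the 90th percentile was 8.88 RPM per kb in liver and 10.9 in MEFs, against 7.41 in iPS cells and 5.23, 5.88 and 6.45 in the ES libraries. H3 was somewhat higher at shared regions, with medians of 0.700 RPM per kb in liver, 0.817 in MEFs and 0.640 in ES cells. All distal H3K4me1 regions had 0.584, 0.654 and 0.568 in the same order.

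**Figure D1:**
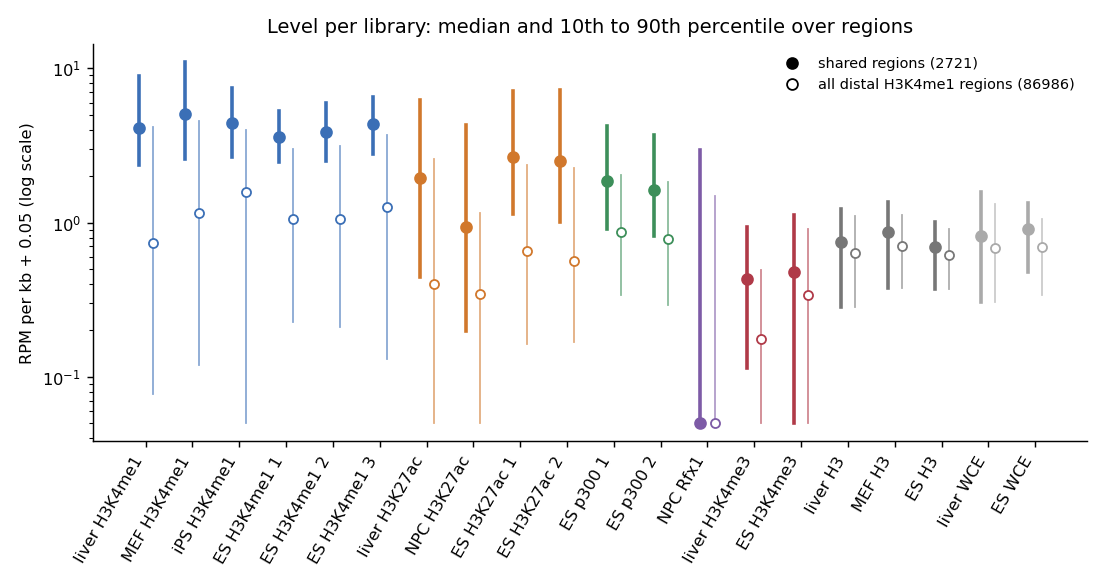
Level of every library at the shared regions (filled circles, thick lines) and at all distal H3K4me1 regions (open circles, thin lines): circles are medians and lines run from the 10th to the 90th percentile over regions, in RPM per kb plus 0.05 on a log axis. The 6 H3K4me1 medians of the shared regions lie between 3.52 and 4.97 RPM per kb, and the 4 H3K27ac medians between 0.881 and 2.62.

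Sharing the mark did not mean carrying it at one level. The cell type with the highest H3K4me1 had a median of 2.27 times the lowest (10th to 90th percentile 1.45 to 4.13, at most 13.01), with the 3 ES libraries averaged. In 998 regions (36.7%) the highest was at most 2-fold the lowest, and in 302 (11.1%) it was over 4-fold. Liver was the highest cell type in 756 regions, MEFs in 1163, iPS cells in 619 and ES cells in 183. Liver was also the lowest most often, in 978 regions, followed by ES cells in 730, MEFs in 565 and iPS cells in 448. Liver stood at least 2-fold above ES cells in 432 regions and at least 2-fold below in 206. MEFs stood at least 2-fold above ES cells in 646 and below in 93, and iPS cells in 71 and 16. With single libraries in liver, MEFs and iPS cells these differences have no replicate check.

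The order of the regions by level differed between cell types. Over the 2721 regions, Pearson correlations of log2 levels were 0.50 to 0.66 between the ES libraries and 0.45 to 0.58 between iPS cells and the ES libraries. They were 0.04 to 0.22 between MEFs and the ES libraries, 0.03 to 0.04 between liver and the ES libraries, and 0.05 between liver and MEFs. The threshold cuts off the low end of all 6 libraries and regions within a library share its depth, so these values are a description.

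The highest shared H3K4me1, ranked by the lowest of the 6 libraries, lay in chr2:29488001-29494000, a 6 kb region 20 kb from the nearest H3K4me3 bin. It had 8.15 RPM per kb in liver, 8.09 in MEFs, 8.28 in iPS cells and 7.12, 7.72 and 7.58 in the ES libraries, a nearly level mark. Its H3K27ac was 2.41 RPM per kb in liver, 0.930 in NPCs and 2.57 and 2.44 in ES cells, and p300 was 2.23 and 2.43 over 0.863 in WCE. The next, chr12:87705001-87707000, had 8.06 RPM per kb of H3K4me1 in liver, 6.86 in MEFs, 10.7 in iPS cells and 6.74, 8.89 and 8.95 in ES cells. Its acetylation was uneven, with 1.88 RPM per kb in liver, 9.47 in NPCs and 7.07 and 9.88 in ES cells. The other 3 in this ranking, chr15:77734001-77735000, chr4:132317001-132324000 and chr4:45515001-45523000, were acetylated in both liver and ES cells, and the chr4:132317001-132324000 region in NPCs as well. H3K4me1 in these 3 ranged from 6.30 to 17.4 RPM per kb over the 6 libraries. Each of the 3 lay 1 kb from the nearest H3K4me3 bin, and the chr12 region 5 kb.

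Shared regions were mostly short, and many lay near bins with H3K4me3. They covered 3969 kb, with a median width of 1 kb and a mean of 1.46 kb, and 2032 (74.7%) were a single bin. Other distal H3K4me1 regions had a median of 2 kb, and 48.5% were a single bin. Short width was not particular to the shared regions. Regions marked in ES and iPS cells only had a median of 1 kb and 68.5% single bins. Those marked in MEFs and liver only had a median of 1 kb and 80.8%. The gap to the nearest bin with H3K4me3 at 1.5 RPM or more in liver or ES cells had a median of 3 kb for shared regions, 5 kb for regions marked in ES and iPS cells only, 8 kb for regions marked in MEFs and liver only, 7 kb for all distal H3K4me1 regions and 27 kb for all distal bins. Under 5 kb from H3K4me3 lay 1615 shared regions (59.4%), against 41.5% of all distal H3K4me1 regions and 13.7% of all distal bins. At least 10 kb away were 543, and at least 50 kb away 19. The rule used H3K4me3 in the bin and its neighbours, so this distance is a description. An H3K4me3 bin could rest on as few as 4 distinct reads in ES cells, and no promoter annotation was used. The median gap of shared regions was 9 kb with H3K4me3 at 3 RPM and 14 kb where both liver and ES cells had to carry it. The H3K4me3 libraries were those of liver and ES cells, so a promoter used in another cell type alone would count as distal.

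The shared regions were spread over all 19 autosomes. Chromosome 11 held 270, or 2.50 per Mb of distal bins, and chromosome 3 held 87, or 0.579 per Mb. Other distal H3K4me1 regions numbered 54.0 and 28.6 per Mb on the same chromosomes. The median gap to the next shared region was 26 kb, and 32.6% lay within 10 kb of another. Within their own sets, other distal H3K4me1 regions had 4 kb and 79.7%. Regions marked in ES and iPS cells only had 13 kb and 44.7%, and those marked in MEFs and liver only 41 kb and 26.0%. The sets differ in number of regions, which also changes these gaps. Joining at 10 kb gave 2188 groups, of which 1833 were 1 region and 113 held 3 or more.

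The 3 widest regions were chr7:28637001-28653000 (16 kb), chr8:125904001-125917000 (13 kb) and chr5:125417001-125428000 (11 kb). In the chr7 region H3K4me1 was 8.16 RPM per kb in liver, 8.70 in MEFs, 6.43 in iPS cells and 5.89, 6.41 and 5.93 in ES cells. Its H3K27ac was 5.04 RPM per kb in liver, 0.642 in NPCs and 6.30 and 4.89 in ES cells, so NPCs lacked an acetylation that liver and ES cells had. The chr8 region carried H3K4me1 at 3.97 RPM per kb in liver, 3.42 in MEFs, 3.72 in iPS cells and 4.37, 3.47 and 3.24 in ES cells, with H3K27ac of 1.60 in liver, 0.565 in NPCs and 1.95 and 1.46 in ES cells. It is thus 13 kb of near-equal H3K4me1 with acetylation below the call threshold in each library. The chr5 region was acetylated in liver (2.38 RPM per kb), NPCs (3.95) and ES cells (2.82 and 3.47).

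H3K27ac, which did not enter the rule, was called in a larger share of shared regions than of distal H3K4me1 regions as a whole. It was called where it reached 2 RPM per kb and 2 times H3 plus 0.1, with ES H3 standing in for NPCs. Liver H3K27ac was called in 44.6% of shared regions, against 12.7% of all distal H3K4me1 regions. NPC H3K27ac was called in 23.0%, against 4.67%. ES H3K27ac was called in both libraries in 54.2%, against 9.63%. All 3 cell types were acetylated in 234 shared regions (8.60%), against 0.333% of all distal H3K4me1 regions, and no library in 438 (16.1%), against 71.7%. Of the 290 distal H3K4me1 regions acetylated in all 3 cell types, 80.7% were shared regions. These are shares of regions called in given libraries, without a test over samples, since liver and NPCs had 1 library each.

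The more restricted sets had other shares. Among the 11825 regions marked in ES and iPS cells and under 1 RPM in liver and MEFs, H3K27ac was called in liver in 0.271%, in NPCs in 2.16% and in both ES libraries in 37.5%. Among the 3305 regions marked in liver and MEFs and under 1 RPM in ES and iPS cells it was called in liver in 41.0%, in NPCs in 10.9% and in both ES libraries in 0.151%. The NPC share, 23.0% in the shared regions, thus stood above the 4.67% of all distal H3K4me1 regions in the set of liver and MEFs and below it in the set of ES and iPS cells. No NPC library helped to choose any of these sets.

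**Figure D2:**
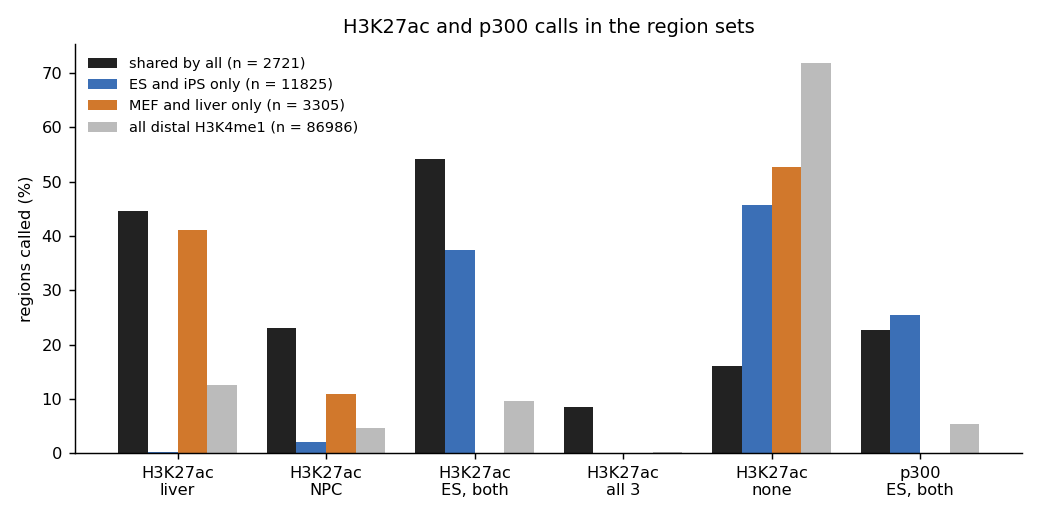
Percent of regions with H3K27ac called in liver, in NPCs, in both ES libraries, in all 3 cell types or in no library, and with p300 called in both ES libraries, for 4 sets of distal H3K4me1 regions. The shared regions (black) have 44.6%, 23.0% and 54.2% in liver, NPCs and ES cells and 16.1% in no library, against 71.7% in no library over all distal H3K4me1 regions (grey).

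H3K27ac went with the level of H3K4me1, which is higher in shared regions than in the whole set, so the sets were also read at matched levels. From 2 to 3 RPM per kb of liver H3K4me1 liver H3K27ac was called in 16.8% of shared regions and 18.6% of regions marked in MEFs and liver only, from 3 to 4 in 32.4% and 28.7%, from 4 to 6 in 46.2% and 47.7%, and from 6 to 10 in 77.6% and 79.1%. NPC acetylation at the same 4 levels was 21.4%, 24.2%, 23.8% and 20% in shared regions and 11.3%, 10.2%, 8.32% and 11.7% in the others. At matched ES H3K4me1, the mean of the 3 libraries, ES acetylation was called in 23.8% of shared regions and 18.6% of regions marked in ES and iPS cells only from 2 to 3 RPM per kb. From 4 to 6 RPM per kb it was 73.1% and 63.9%. The differences between sets were not tested.

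The shares also stood above those of the whole set away from H3K4me3. In the 1106 shared regions at least 5 kb from H3K4me3, H3K27ac was called in liver in 38.9%, in NPCs in 22.7%, in both ES libraries in 50.5% and in no library in 18.3%. All distal H3K4me1 regions at that distance had 9.16%, 4.47%, 5.17% and 79.6%. In the 19 shared regions at least 50 kb away the shares were 47.4%, 31.6%, 42.1% and 21.1%, against 6.38%, 3.50%, 1.52% and 87.5% of all 6798 at that distance. Shared regions of a single bin had 39.5% in liver, 21.9% in NPCs and 49.9% in ES cells, against 8.79%, 4.46% and 6.74% of all single-bin regions.

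Within the shared regions, acetylation differed by cell type. H3K27ac in ES cells and in no other cell type was found in 556 regions (20.4%), against 7.56% of all distal H3K4me1 regions. Classes of 2 cell types were also larger than in the whole set, with liver and ES cells in 504 (18.5%, against 1.08%), NPCs and ES cells in 181 (6.65%, against 0.660%) and liver and NPCs in 55 (2.02%, against 0.470%). Liver alone, in 252 (9.26%), and NPCs alone, in 77 (2.83%), stood near the whole set, at 10.3% and 2.86%. A further 424 (15.6%, against 5.04%) were called in 1 of the 2 ES libraries, whatever liver and NPCs showed. Of the 1213 regions acetylated in liver, 60.8% were also acetylated in ES cells, which is 50.03% of the 1475 acetylated there, where the same overlap over all distal H3K4me1 regions was 11.1% and 14.6%. Of the 626 acetylated in NPCs, 66.3% were also acetylated in ES cells, or 28.1% of the ES regions, against 21.3% and 10.3% over all. The calls themselves were more frequent at shared regions. ES H3K27ac was called in 54.2% of them against 9.63% over all, liver in 44.6% against 12.7%, and NPC in 23.0% against 4.67%. The larger overlaps at shared regions thus do not show a closer pairing of calls. The median liver H3K4me1 was 6.05 RPM per kb in regions acetylated in liver alone, against 3.14 in those acetylated in ES cells alone, and ES H3K4me1 in the first library was 2.92 against 3.92. Both sets carried H3K4me1 in both cell types, at unequal levels.

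**Figure D3:**
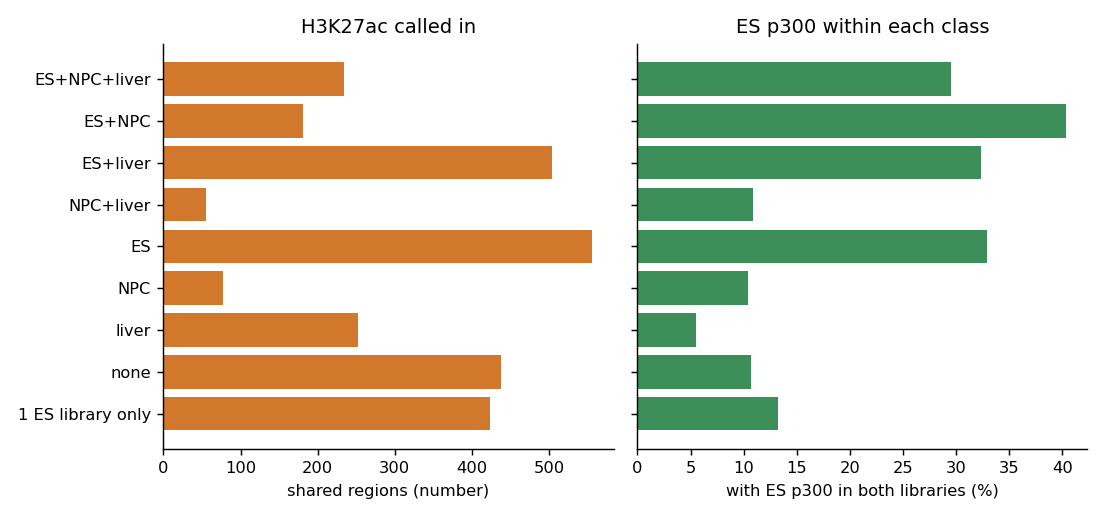
Left, number of shared regions by the cell types in which H3K27ac was called; right, percent of each class with p300 called in both ES libraries. Classes with H3K27ac in both ES libraries have p300 in 29.5 to 40.3% of regions, and classes with it in neither in 5.56 to 10.9%. The class called in 1 ES library only has p300 in 13.2%.

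ES p300 was called, at 2 RPM per kb and 2 times WCE plus 0.1, in both libraries in 619 shared regions (22.7%), against 5.42% of all distal H3K4me1 regions. By class, p300 was found in 29.5% of the shared regions acetylated in all 3 cell types, 32.3% of those in liver and ES cells, 40.3% of those in NPCs and ES cells and 32.9% of those in ES cells alone. In all distal H3K4me1 regions these classes had 28.6%, 25.6%, 32.2% and 28.3%. The whole set includes the shared regions, which made up 80.7%, 53.8%, 31.5% and 8.45% of these classes. Nearness in the classes they dominate is thus largely built in and does not compare them with other regions. p300 was found in 10.9% of those in liver and NPCs, 5.56% of those in liver alone, 10.4% of those in NPCs alone and 10.7% of those in none, against 1.71%, 0.548%, 3.49% and 2.66% in the whole set, whose regions did not need ES H3K4me1. Shared regions with H3K27ac called in 1 of the 2 ES libraries had p300 in 13.2%, against 12.5% in the whole set. The Pearson correlation of log2 levels over the 2721 regions was 0.48 to 0.55 between the ES H3K27ac and p300 libraries, 0.15 between NPC H3K27ac and p300 in its first library and 0.01 between liver H3K27ac and the same library. The pair of p300 libraries correlated at 0.78 and the pair of ES H3K27ac libraries at 0.88.

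At regions marked in ES and iPS cells only, p300 was called in 25.4%, near the 22.7% of the shared regions. At matched ES H3K4me1 the p300 share was 6.99% at shared regions against 14.7% at these from 2 to 3 RPM per kb, 15.1% against 24.5% from 3 to 4, and 32.5% against 40.2% from 4 to 6. At the same 3 levels the ES H3K27ac share was the larger one at shared regions, at 23.8% against 18.6%, 41.1% against 34.8%, and 73.1% against 63.9%. Neither difference between sets was tested.

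Differences of H3K27ac between cell types were fitted over all distal H3K4me1 regions with limma-trend, in 1 fit with the p300 and WCE libraries, and p-values were adjusted by Benjamini-Hochberg over the 62582 regions tested. Of the 2721 shared regions, 2689 passed the filter of 10 reads in 1 library. The ES H3K27ac and p300 pairs give the spread, with 2 residual degrees of freedom, and single libraries are assumed to vary like them. The spread is pooled across regions, which raised the total degrees of freedom to 44.653 (median) by limma-trend and 125164 by limma-voom. Very small p-values thus rest on this pooling and not on replicates of NPCs or liver. On simulated data limma-trend called more unchanged regions than its threshold allows and limma-voom did not, so limma-voom counts are given too. The simulation gave all libraries the same dispersion and, apart from the planted changes, the same mean profile. It thus cannot show whether either method keeps to its threshold where the NPC and liver libraries vary otherwise than the ES pairs. The NPC and liver contrasts use the same ES libraries, and liver is a mixture, in which fewer cells with a mark and less of the mark per cell cannot be told apart.

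Acetylation in NPCs was mostly below that in ES cells. NPC H3K27ac was higher than ES H3K27ac in 212 shared regions and lower in 1573 by limma-trend at an adjusted p of 0.05, where 8.52% of all regions tested were higher and 44.6% lower. These are 7.88% and 58.5% of the shared regions tested. The median log2 difference was -1.35, against -0.91 over all regions. By limma-voom 227 were higher and 1108 lower, with 8% and 25.9% of all regions. With a trimmed mean of M-values as scaling, 425 were higher and 1105 lower (17.1% and 30.1% of all regions), and the medians were -0.68 and -0.31. With no filter, over all 2721 shared regions, 195 were higher and 1487 lower (5.96% and 31.2% of all regions).

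The 3 largest gains in NPCs stood beside ES levels of 0.799 to 3.08 RPM per kb, and in 2 of them H3K27ac was called in 1 of the ES libraries. The region chr2:30469001-30470000 had 30.2 RPM per kb of H3K27ac in NPCs, against 0.799 and 1.19 in the 2 ES libraries, a log2 difference of 4.59 ± 0.49 (SE; limma-trend, adjusted p = 1.1e-10; limma-voom, adjusted p = 2.5e-29). NPC Rfx1 stood at 50.4 RPM per kb there, from 35 reads. The region chr12:80889001-80890000 had 45.9 RPM per kb in NPCs, against 1.37 and 2.02 in ES cells (4.56 ± 0.37; limma-trend, adjusted p = 3.1e-14; limma-voom, 1.3e-41), with 13.9 in liver. At chr12:112135001-112136000 NPCs had 45.2, against 3.08 and 1.67 in ES cells (4.15 ± 0.39). In each of these the NPC library lay far above both ES libraries, while H3K4me1 was present at 2.82 to 13.02 RPM per kb in liver, MEFs, iPS and ES cells.

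The largest losses left almost no NPC reads. The region chr6:91675001-91676000 had 0.147 RPM per kb of H3K27ac in NPCs, a single read, against 26.6 and 21.2 in ES cells (log2 difference -5.78 ± 0.35; limma-trend, adjusted p = 6.1e-18; limma-voom, 5.5e-05). At chr7:80651001-80652000 NPCs had no read, against 13.8 and 14.3 RPM per kb in ES cells, and at chr19:18673001-18677000 they had 0.110, against 8.81 and 5.74. p300 was present in ES cells at all 3, at 2.31 to 6.32 RPM per kb.

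Liver acetylation differed from that of ES cells in both directions. Liver H3K27ac was higher in 482 shared regions and lower in 956 by limma-trend (17.9% and 35.6% of the shared regions tested), where 23.5% of all regions were higher and 45.7% lower. The median log2 difference was -0.40, against -0.85 over all regions. By limma-voom 487 were higher and 620 lower (22.8% and 21.5% of all regions). The direction of the balance depended on scaling: with libraries scaled on unmarked distal bins 907 were higher and 465 lower (31.1% and 32.9% of all regions), and the median turned to 0.42, against -0.22 over all regions. With a trimmed mean of M-values 608 were higher and 854 lower (26.1% and 43.7% of all regions). Relative to all regions, the median of the shared regions was the higher one under each of these scalings.

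The region chr2:24713001-24714000 had 29.1 RPM per kb of H3K27ac in liver, against 0.913 and 0.595 in ES cells, a log2 difference of 4.83 ± 0.46 (limma-trend, adjusted p = 2.2e-12; limma-voom, 2.8e-26). H3K4me1 there was 17.4 RPM per kb in liver and 3.92, 5.01 and 4.52 in ES cells. At chr6:108414001-108415000 liver had 28.1, against 1.25 and 0.714 in ES cells (4.51 ± 0.47), and at chr15:58810001-58811000 it had 20.6, against 1.14 and 0.595 (4.21 ± 0.44). The opposite was seen at chr4:128765001-128766000, with no liver read against 15.7 and 16.8 RPM per kb in ES cells (-5.83 ± 0.34; limma-trend, adjusted p = 6.6e-19; limma-voom, 0.00091). Liver also had no read at chr2:20575001-20576000, against 9.81 and 7.38 in ES cells, and 0.396 RPM per kb at chr11:88445001-88446000, against 18.9 and 21.5. At these 3 regions liver H3K4me1 was 2.05 to 2.87 RPM per kb, close to the threshold, and ES H3K4me1 was 3.82 to 10.2.

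**Figure D4:**
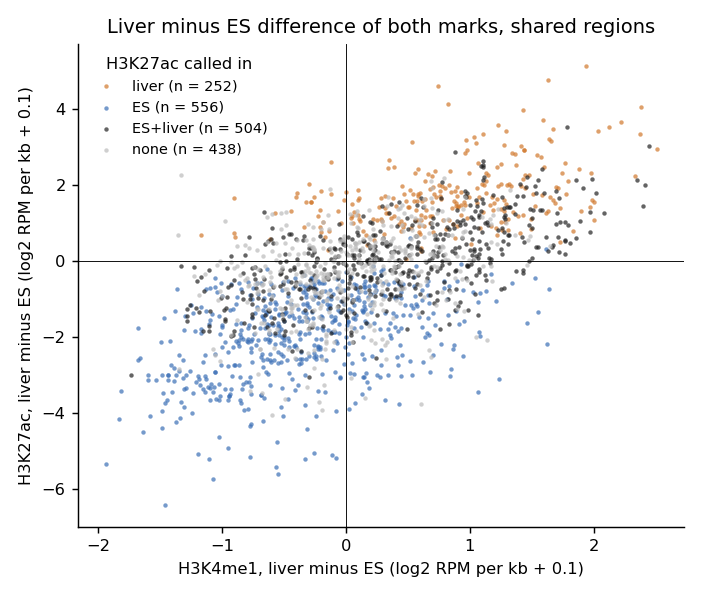
Liver minus ES difference of H3K27ac (y) against that of H3K4me1 (x), each as log2 of RPM per kb plus 0.1 with ES libraries averaged. Each point is a shared region, coloured by where H3K27ac was called. Classes with NPC acetylation and the 424 regions called in 1 of the 2 ES libraries are not drawn. The classes are calls on the H3K27ac values of the y axis, so their split along y is built in. Regions acetylated in liver alone lie mostly to the upper right and those acetylated in ES cells alone mostly to the lower left, with a Pearson correlation of 0.61 over all 2721 shared regions.

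Between the single liver and NPC libraries, liver H3K27ac was higher in 1178 shared regions and lower in 347 by limma-trend, where 30% of all regions were higher and 19.2% lower. By limma-voom 781 were higher and 220 lower (21.3% and 6.07% of all regions). The median log2 difference was 0.93, against 0.12 over all regions. With a trimmed mean of M-values 990 were higher and 590 lower (26.1% and 32.1% of all regions), with medians of 0.44 and -0.17.

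At chr10:76562001-76563000 liver had 21.0 RPM per kb and NPCs no read (limma-trend, adjusted p = 1.9e-13; limma-voom, 0.00041). At chr13:44420001-44421000 and chr12:76456001-76457000 liver had 14.3 and 13.3, and NPCs again had no read. In the other direction, chr8:123268001-123269000 had no liver read against 17.9 RPM per kb in NPCs. The region chr2:30469001-30470000, named above, had 0.198 in liver against 30.2 in NPCs, and chr17:35312001-35313000 had 0.198 in liver against 24.7 in NPCs. The last of these had 135 RPM per kb of Rfx1 in NPCs, from 94 reads.

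A few regions were acetylated at a high level in liver, NPCs and ES cells. Ranked by the lowest of the 4 H3K27ac libraries, chr2:27562001-27563000 came first, with 11.5 RPM per kb in liver, 12.3 in NPCs and 9.35 and 15.1 in ES cells. It lay 14 kb from H3K4me3, had p300 at 8.91 and 6.31 RPM per kb over 0.863 in ES WCE, and Rfx1 at 223 RPM per kb from 155 reads. Liver WCE there was 2.04 RPM per kb. The next, chr6:128068001-128069000, had 24.0 in liver, 9.98 in NPCs and 7.76 and 7.97 in ES cells, with 2.29 in liver WCE. At chr2:32736001-32737000 liver had 7.33, NPCs 10.4 and ES cells 11.3 and 17.6, and MEF H3K4me1 reached 28.9 RPM per kb. At chr15:61909001-61910000 the levels were 10.3 in liver, 11.2 in NPCs and 8.10 and 7.26 in ES cells, and at chr2:26328001-26331000 they were 13.9, 7.00, 9.77 and 8.05. The regions after the first lay closer to H3K4me3, at 1, 3, 8 and 1 kb in the order given. Adjusted p-values of NPC against ES cells were 0.17 to 0.91 in these 5 by limma-trend, which does not show equal levels.

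At the other end, 6 shared regions (0.221%) had H3K27ac under 0.5 RPM per kb in all 4 libraries. The share over all distal H3K4me1 regions was not computed. Their median H3K27ac was low, at 0.348 RPM per kb in liver, 0.294 in NPCs and 0.605 and 0.516 in ES cells. Among the 6 shared regions, the highest H3K4me1 was at chr6:100199001-100200000. It had 6.69 RPM per kb in liver, 2.87 in MEFs, 3.05 in iPS cells and 4.22, 3.19 and 3.87 in ES cells. Its H3K27ac was 0.396 in liver, 0.147 in NPCs and 0.342 and 0.119 in ES cells, from 1 to 3 reads per library, and p300 was 0.431 and 0.364 against 1.15 in WCE. At chr12:101232001-101233000, also without acetylation, p300 reached 3.31 and 3.52 RPM per kb over 0.575 in WCE, which came to 23 and 29 reads.

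p300 exceeded WCE in ES cells in 973 shared regions and was lower in 0 by limma-trend at an adjusted p of 0.05, where 16.4% of all regions tested were higher and 0.312% lower. At an unadjusted p of 0.05 the counts were 1343 and 17. The shares of all regions at that unadjusted threshold were not computed, so these counts have no background to be read against. By limma-voom at an adjusted p of 0.05 the counts were 460 and 1 (10.1% and 0.195% of all regions). The share of shared regions tested that were higher was 36.2%, and the median log2 difference 0.88, against 0.37 over all regions. Without the first p300 library 356 were higher (5.82% of all regions) and without the second 543 (8.88%), both below 973.

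By the lower fold of the 2 libraries over WCE, the leading p300 region with reads in WCE was chr15:61922001-61923000. It had p300 at 34.3 and 25.8 RPM per kb over 0.719 in WCE, with H3K27ac of 0.594 in liver, 3.52 in NPCs and 12.3 and 9.64 in ES cells. The region chr10:59369001-59370000 had p300 at 21.8 and 19.2 over 0.719 in WCE, and chr1:190714001-190715000 had 14.5 and 12.6 over 0.431. At chr5:122779001-122780000 and chr11:106482001-106483000 p300 was 4.89 and 4.25, and 3.16 and 3.15 RPM per kb, and WCE had no read in either.

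The 1106 shared regions at least 5 kb from H3K4me3 were aligned on the 200 bp window highest in the first p300 library, and other libraries were averaged around it. p300 was called in both libraries in 282 of them (25.5%), so for the others the window is the highest in p300 without a call. H3K4me1 chose the regions, and its central maximum is a description: aligned on the region centre, H3K4me1 at the centre was 5.20 RPM per kb in liver, 6.50 in MEFs, 4.81 in iPS cells and 3.66, 3.96 and 4.51 in ES cells. The values below are those around the p300 window. The second p300 library had 4.98 RPM per kb at the centre, 1.38 at 500 bp and 0.998 at 3 kb. Liver H3K4me1 had 5.94 at the centre, 3.90 at 500 bp and 1.67 at 3 kb, MEF H3K4me1 7.90, 4.67 and 1.99, and iPS H3K4me1 5.03, 4.02 and 1.98. The ES H3K4me1 libraries had 3.75, 4.33 and 4.81 at the centre and 3.30, 3.48 and 3.80 at 500 bp. H3K27ac was 3.15 at the centre in liver, 2.64 in NPCs and 4.12 and 4.20 in ES cells, and 1.00, 0.557, 1.41 and 1.28 at 3 kb. NPC Rfx1 was 3.09 at the centre and 0.554 at 3 kb. WCE was also raised at the centre, at 1.14 against 0.721 at 3 kb in liver and 0.992 against 0.694 in ES cells, and its part in the central values was not tested.

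**Figure D5:**
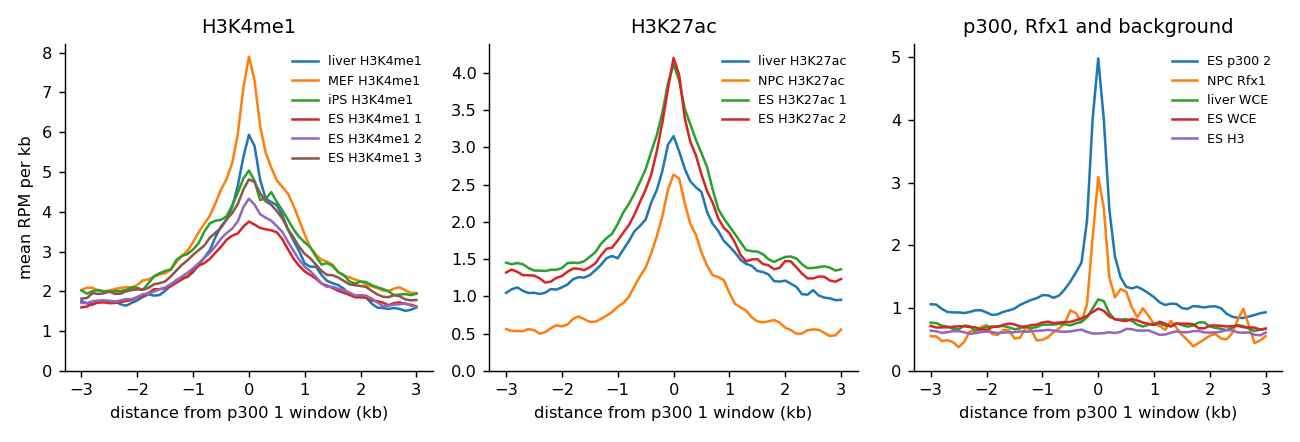
Mean level in RPM per kb by distance in kb from the 200 bp window highest in the first ES p300 library, over shared regions at least 5 kb from H3K4me3; the 3 panels show H3K4me1, H3K27ac, and p300, Rfx1, WCE and H3. Each plotted H3K4me1 and H3K27ac library has its maximum at the centre; the regions were chosen by H3K4me1, and 282 of the 1106 had a p300 call in both libraries.

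Rfx1 in NPCs was called, with at least 5 reads and 3 times ES WCE plus 0.1, in 109 shared regions (4.01%), against 1.92% of all distal H3K4me1 regions. It was found in 72 of the 626 shared regions with NPC acetylation (11.5%) and in 1.77% of those without. The same split over all distal H3K4me1 regions was 10.8% and 1.49%, so at shared regions the share within each class stood near that of the whole set. The library had no read in 1627 shared regions (59.8%), and at its depth a region without a call may still be bound.

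The highest Rfx1 fold over WCE was at chr19:5094001-5095000, with 475 RPM per kb from 330 reads, NPC H3K27ac of 2.35 RPM per kb and liver H3K27ac of 0.396. At chr8:73529001-73531000 Rfx1 was 238 RPM per kb, also from 330 reads over 2 kb, with NPC H3K27ac of 3.67. At chr11:69845001-69846000 Rfx1 was 119.6 RPM per kb from 83 reads, and NPC H3K27ac was 15.4, against 1.37 and 1.43 in ES cells. H3K4me1 at these 3 regions was 2.32 to 3.69 RPM per kb in liver and 6.69 to 9.87 in MEFs. They lay 3, 1 and 1 kb from the nearest H3K4me3 bin, in the order given.

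Background was somewhat higher at shared regions. WCE reached 2 RPM per kb in liver or ES cells in 145 of them (5.33%), against 1.33% of all distal H3K4me1 regions, most of them from the shallower liver WCE library (126). With these 145 left out, H3K27ac was called in liver in 44.9%, in NPCs in 22.6%, in both ES libraries in 53.6% and in no library in 16.4%, and p300 in 22.9%.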

How the data were processed

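Each library has 1 deposited file of aligned reads, in which the authors give signed positions per chromosome, negative on the reverse strand. These positions are neither counts nor a normalised level. Per the labels' protocols, fragments averaged 500 bp and 18 cycles of PCR were run. The aligner is not given in the sources used here, nor is the build. The last read of each chromosome lay within the mm8 length on 20 of 20 chromosomes compared, and the gene table at hand, of GRCm38.p6, places genes past it on 11 of them, so no gene or sequence was read by coordinate.

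Reads at 1 position and strand were counted once, moved 100 bp toward the fragment centre and scaled to distinct reads of the 19 autosomes. The shared regions, the compared sets and the rules for named regions were chosen with earlier results of these data known. Named regions are those with the highest lowest-library H3K4me1 (5), the widest (3), the largest H3K27ac gains and losses per contrast (3 each), the highest lowest-library H3K27ac (5), H3K27ac under 0.5 RPM per kb with the highest H3K4me1 (3), the highest p300 (5) and Rfx1 (3) folds over WCE, and bins at the threshold (3 on each side). Some of these are given by range or left out.

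Counts per region, as log2 CPM (prior count 2), were tested with limma-trend (limma 3.58.1, R 4.3.3), the planned test, with 1 mean for each of 6 groups over 8 libraries, Benjamini-Hochberg adjustment at 0.05 and a filter of 10 reads in 1 H3K27ac or p300 library. p-values measure the spread between the ES pairs. The procedure was tested on simulated data with the same dispersion in every library. Counting and plots used Python 3.11.15, numpy 2.4.6, pandas 2.3.3 and matplotlib 3.10.9. Alternatives were other thresholds, distal rules, scalings, prior counts, filters, repeated reads kept, limma-voom, single bins and libraries left out.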

Additional observations from a re-analysis of the deposited data

How the results depend on the processing

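Of 368 values under alternative settings, 114 summary values stayed within their limits, 56 moved, and all 198 values of the regions named for H3K27ac kept their direction and their side of the threshold. The number of shared regions was 4192 at 1.5 RPM of H3K4me1, 975 at 3 RPM, 1733 at an H3 ratio of 3, 1181 with no H3K4me3 within 5 bins and 447 with H3K4me3 under 0.5 RPM. Without each ES H3K4me1 library in turn it was 2866 to 3035. With the libraries thinned to the iPS depth, 63.3% of the bins were kept, and with all reads kept 75.7%.

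The H3K27ac shares, given for liver, NPCs, both ES libraries, all 3 and none and followed by p300, moved with the call threshold and the distal rule. They were 53.2, 26.9, 63.9, 12.3, 9.52 and 29.3% at 1.5 RPM per kb and 31.0, 15.3, 33.6, 2.94, 34.7 and 12.6% at 3 RPM. With H3K4me3 under 0.5 RPM they were 26.6, 20.6, 47.9, 3.80, 22.4 and 18.1%. With no H3K4me3 within 5 bins, liver, ES, all 3, none and p300 had 39.5, 51.2, 6.77, 17.9 and 24.6%. With WCE as background, liver, NPCs, ES, all 3 and none had 41.3, 20.8, 49.7, 6.65 and 19.8%. Single bins gave 47.5% in liver and 14.7% in none, and all reads kept, on the same regions, 20.2% in NPCs and 17.8% in none. Requiring 1 ES library in place of 2 gave 60.02 to 64.0% for ES H3K27ac, 18.9 to 20.9% for none and 26.8 to 37.0% for p300.

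Of the shared regions tested by limma, liver against ES cells had 33.7% higher and 17.3% lower with scaling on unmarked bins, and 23.1% lower by limma-voom. Liver against NPCs had 29.0% higher and 8.18% lower by limma-voom and 21.9% lower with a trimmed mean of M-values. NPC against ES cells had 15.8% higher with the trimmed mean. p300 against WCE had 54.7% higher with unmarked bins and 17.1% by limma-voom. It had 13.3% higher without the first p300 library and 20.3% without the second, both below the 36.2% of the main fit. These fits leave a single p300 library. Leaving out the first ES H3K27ac library, which this contrast does not compare, gave 39.2%, and leaving out the second gave 38.003%. The share of higher calls among shared regions was 33.5% for liver against ES cells, 41.6% with the trimmed mean and 66.1% with unmarked bins. Over all regions tested it was 33.98, 37.3 and 48.6%, in the same order of scalings. For NPC against ES cells it was 11.9, 27.8 and 17.03% among shared regions and 16.04, 36.2 and 22.9% over all. For liver against NPCs it was 77.2, 62.7 and 85.7% among shared regions and 60.995, 44.8 and 70.5% over all. The median gap to H3K4me3 was 9 kb with H3K4me3 at 3 RPM and 14 kb where both liver and ES cells had to carry it. The causes were not tested. Leaving out regions under 5 kb from H3K4me3, or with WCE at 2 RPM per kb, was chosen after seeing the data.

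No paired analysis was possible because the numbers 1 and 2 belong to different assays of the same cells, H3K27ac and p300, and the groups set against them have a single library. Depth limits the calls in the shallow libraries: the H3K4me1 threshold stood for 5 reads in iPS cells, and 1627 shared regions had no Rfx1 read.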
